A study of Mus musculus with 35 samples.

Results

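The 9 genes described here encode the enzyme that makes itaconate and the isocitrate and succinate dehydrogenases that lie around it in central metabolism. They are Acod1, Idh1, Idh2, Idh3a, Idh3b, Idh3g, Sdha, Sdhb and Sdhd, taken by symbol from 47069 gene identifiers, and all 9 were measured in every library and passed the filter on low values that left 11354 genes for testing. Acod1 encodes aconitate decarboxylase, which removes a carboxyl group from the TCA cycle intermediate cis-aconitate and so draws carbon out of the cycle before isocitrate is oxidised. Itaconate, its product, is known from activated macrophages as an inhibitor of succinate dehydrogenase, the complex that oxidises succinate to fumarate and feeds electrons to the respiratory chain. Isocitrate itself can be oxidised to α-ketoglutarate by the NADP-dependent enzymes of the cytosol (Idh1) and the mitochondrion (Idh2), or by the NAD-dependent mitochondrial enzyme built from the products of Idh3a, Idh3b and Idh3g.

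RNA came from cultured bone marrow-derived macrophages (BMDMs) of C57BL/6 mice, wild-type or labelled AMPKa1-/-, a deletion of the catalytic subunit α1 of the energy-sensing kinase AMPK. BMDMs of each genotype were kept for 24 h with vehicle (DMSO), the synthetic glucocorticoid (GC) dexamethasone (Dex) at 100 nM, lipopolysaccharide (LPS, a bacterial cell wall component) at 100 ng/ml, LPS + Dex, DAMPs at 1 µg/ml, or DAMPs + Dex. The labels give no make-up for the DAMPs, no age or sex of the mice (the study's methods describe adult cohorts of both sexes, with no tie to a library) and no statement of the cells in which the kinase gene was deleted, and all cells had grown in medium with L929-conditioned supernatant. Each of the 12 groups had 3 libraries, save that wild-type LPS had 2 (replicate 1 of that group was not analysed here), which gives 17 wild-type libraries and 18 labelled AMPKa1-/-, 35 in all. The comparisons ask how GCs and inflammatory stimuli shift the transcripts of this branch point, and whether the genotype changes that. Levels are in FPKM, fragments counted per kilobase of a gene relative to the whole library, and the libraries held 15837203 to 31955298 fragments.

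Prkaa1, the gene of the labelled deletion (chr15:5143861-5181899, GRCm38), did not separate the genotypes. In vehicle cells it stood at 15.9, 11.8 and 15.3 FPKM in wild-type BMDMs and at 14.8, 16.5 and 15.4 FPKM in BMDMs labelled AMPKa1-/-. Over all treatments the wild-type libraries ran from 8.59 to 26.1 FPKM and the libraries labelled AMPKa1-/- from 9.05 to 24.0 FPKM, so the ranges overlapped nearly whole. Averaged over the 6 treatments the difference was -0.04 on the log2(FPKM + 1) scale (SE 0.10, adjusted p = 0.767, limma). A value for the whole gene does not check a deletion of part of it, and the sources used here do not say which part was deleted. The second group is therefore called by its label throughout. Prkaa2, which encodes the other catalytic subunit, did not exceed 0.13 FPKM in any library.

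Macrophage identity was clear in all groups. All 8 macrophage markers examined were detected in each group, with a summed level between 17237 FPKM (wild-type LPS) and 34796 FPKM (LPS + Dex labelled AMPKa1-/-), most of it from the lysozyme gene Lyz2. The summed markers of erythroid cells, lymphocytes, and mast cells and basophils never exceeded 2.05 FPKM in a library, the highest value being a lymphocyte sum: these were 1.38 and 2.05 FPKM in wild-type LPS, against 0.150 to 0.378 FPKM in wild-type vehicle. Other lists moved with LPS at higher levels. The 8 neutrophil markers summed to 123 FPKM in wild-type LPS and 104 FPKM in LPS labelled AMPKa1-/-, nearly all of it from Camp, while Ly6g and Retnlg were at 0 in those libraries. With LPS + Dex the same sums were 40.0 and 30.2 FPKM, again mostly Camp, and in no other library did they pass 15.5 FPKM. The 6 dendritic cell markers summed to 75.1 and 64.9 FPKM with LPS, nearly all Ccr7, with Cd209a at 0, and did not exceed 1.58 FPKM in any library not given LPS alone. The wild-type LPS libraries differed widely in this sum, with 38.6 FPKM in replicate 2 and 112 FPKM in replicate 3. The 5 fibroblast markers were low in all groups. Their sums were 16.0, 1.42 and 9.28 FPKM in wild-type vehicle and 11.2, 14.3 and 22.2 FPKM in wild-type Dex libraries, against 1.57 to 2.80 FPKM and 2.70 to 4.17 FPKM in those labelled AMPKa1-/-, so that wild-type vehicle replicate 2 lay under the vehicle range of the other genotype. With LPS they were 13.7 and 11 FPKM in wild-type cells, and 5.85, 8.88 and 9.62 FPKM in cells labelled AMPKa1-/-, above all vehicle libraries of that genotype. The part of these lists in the results was not tested. In bulk RNA such as this, fewer cells of a type and less RNA per cell cannot be told apart.

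Acod1 (ENSMUSG00000022126, chr14:103046977-103056573, plus strand) had the widest range of the 9 genes. Wild-type vehicle cells held 1.43, 1.5 and 2.71 FPKM, which rest on 69, 66 and 142 fragments, and wild-type LPS cells held 1250.3 and 1807 FPKM, from 69723 and 112927 fragments. BMDMs labelled AMPKa1-/- went from 4.10, 1.83 and 0.887 FPKM in vehicle to 1347, 1313 and 992 FPKM with LPS. The groups lay far apart: the ratio of means was 813 in wild-type cells and 536 in cells labelled AMPKa1-/- (895 without vehicle replicate 1, the library with 4.10 FPKM), and with LPS Acod1 ranked between 34 and 91 among the 11354 genes tested in each library. On the log2(FPKM + 1) scale, where 1 FPKM is added and the change of a weakly expressed gene is understated, the rise was 9.06 (SE 0.39, adjusted p = 3.78e-17, limma) and 8.65 (SE 0.35, adjusted p = 5.37e-18).

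Dex lowered Acod1 under every condition in which it was given. Added to LPS, it left 264, 143 and 395 FPKM in wild-type cells and 416, 311 and 261 FPKM in cells labelled AMPKa1-/-, below every library with LPS alone and above every library without LPS. The mean with LPS + Dex was 5.73-fold lower than with LPS in wild-type cells (-2.61 on the log2 scale, SE 0.39, adjusted p = 4.16e-06) and 3.70-fold lower in cells labelled AMPKa1-/- (-1.90, SE 0.35, adjusted p = 6.23e-05). It was still 142 and 145 times the vehicle mean (242 in the latter without vehicle replicate 1). The transcript thus kept a high level with LPS + Dex, between the vehicle and the LPS groups.

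The unstimulated level fell as well. With Dex alone Acod1 stood at 0.143, 0.123 and 0.444 FPKM in wild-type cells, from 6 to 22 fragments a library, and at 0.5, 0.162 and 0.161 FPKM in cells labelled AMPKa1-/-. The groups did not overlap with vehicle, as was so for 50.2% (wild-type) and 46.7% (labelled AMPKa1-/-) of all genes tested. The means were 7.93-fold and 8.28-fold lower. They were 14.1-fold lower without wild-type Dex replicate 3 and 14.1-fold without Dex replicate 1 labelled AMPKa1-/-. Without vehicle replicate 1 of that genotype the fall was 4.95-fold. The tests gave -1.2 (SE 0.35, adjusted p = 0.00950) and -1.25 (SE 0.35, adjusted p = 0.00726). Each call rested on the vehicle library with the highest value: without wild-type vehicle replicate 3 the change was -1.0 (adjusted p = 0.0545), and without vehicle replicate 1 labelled AMPKa1-/- it was -0.87 (adjusted p = 0.0784).

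DAMPs gave a far smaller rise of Acod1 than LPS. Wild-type libraries with DAMPs held 6.40, 2.64 and 11.3 FPKM and overlapped with vehicle, whereas those labelled AMPKa1-/- held 11.4, 10 and 10.7 FPKM and did not. Among all genes tested, DAMPs and vehicle groups did not overlap in 13.1% (wild-type) and 21.1% (labelled AMPKa1-/-). The change was 1.29 in wild-type cells (SE 0.35, adjusted p = 0.0465) and 1.96 in cells labelled AMPKa1-/- (SE 0.35, adjusted p = 0.000838). The wild-type call was lost with a pseudocount of 0.1 (adjusted p = 0.0991) and under most other alternatives, and without DAMPs replicate 3 the change was 0.88 (adjusted p = 0.514). With DAMPs + Dex the levels were 0.297, 0.288 and 0.716 FPKM in wild-type cells and 0.267, 0.337 and 0.427 FPKM in cells labelled AMPKa1-/-, all under every vehicle library. The means were 15.6-fold and 31.2-fold lower than with DAMPs alone (-2.29, adjusted p = 9.44e-06, and -3.12, adjusted p = 6.32e-08, SE 0.35 for both). In wild-type cells 1 library left out moved this to between 10.4-fold (without DAMPs replicate 3) and 23.2-fold (without DAMPs + Dex replicate 3).

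The 12 group means of Acod1 fell into 4 tiers. Both LPS groups came first, then both LPS + Dex groups, then the DAMPs and vehicle groups, and last the groups given Dex alone or DAMPs + Dex. Within a tier each group overlapped with its neighbour in the order, and between tiers none did.

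**Figure D1:**
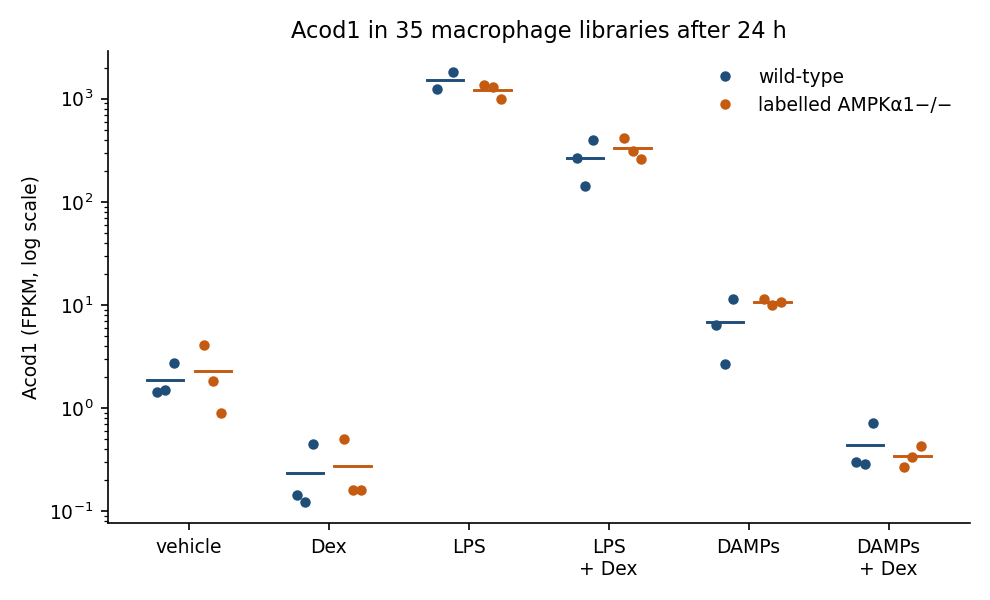
FPKM of Acod1 (log axis) in each library of the 12 groups, with wild-type and AMPKa1-/- libraries side by side and the group mean as a bar. The LPS libraries lie between 992 and 1807 FPKM, the LPS + Dex libraries between 143 and 416 FPKM, and all libraries without LPS at or below 11.4 FPKM.

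Idh1 (ENSMUSG00000025950, chr1:65158616-65186500, minus strand), the cytosolic NADP-dependent enzyme, moved opposite to Acod1 with LPS. It was at 278, 234 and 259 FPKM in wild-type vehicle cells and at 58.1 and 45.3 FPKM with LPS. Cells labelled AMPKa1-/- went from 258, 253 and 269.6 FPKM to 78.5, 80.1 and 33.3 FPKM. No LPS library came near a vehicle library, and the change was -2.30 (SE 0.26, adjusted p = 2.32e-08) and -2.11 (SE 0.24, adjusted p = 1.04e-08). These are differences in log2(FPKM + 1). The median of all 11354 genes was itself -0.19 and -0.30 in this comparison, and relative to it Idh1 fell by 2.11 in wild-type cells and by 1.81 in cells labelled AMPKa1-/-.

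LPS + Dex brought Idh1 part of the way back. The levels were 121, 94.9 and 78.8 FPKM in wild-type cells and 118, 118 and 64.9 FPKM in cells labelled AMPKa1-/-, under all vehicle libraries of either genotype. Against LPS this was a rise of 0.90 (SE 0.26, adjusted p = 0.00855) and 0.69 (SE 0.24, adjusted p = 0.0213). Replicate 3 was low in both groups labelled AMPKa1-/-, which made them overlap. Within each replicate number LPS + Dex was above LPS, and with the replicate number as a block the call held (adjusted p = 0.0113). It was lost without LPS replicate 3 (0.28, adjusted p = 0.315), and when only 1 genotype (adjusted p = 0.0504) or only these 6 libraries were fitted (adjusted p = 0.202). Leaving out LPS + Dex replicate 1 (adjusted p = 0.114) or 2 (adjusted p = 0.111) also lost it. In wild-type cells it was lost without LPS replicate 3 (0.73, adjusted p = 0.117). Dex alone left Idh1 at 245 to 321 FPKM and DAMPs at 173 to 259 FPKM over both genotypes, and neither comparison passed the test.

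Idh2 (ENSMUSG00000030541, chr7:80094846-80115392, minus strand), which makes NADPH and α-ketoglutarate in the mitochondrion, had the same course, with a smaller fall. Vehicle libraries held 77.1, 102 and 82.3 FPKM (wild-type) and 87.4, 90.7 and 79.4 FPKM (labelled AMPKa1-/-). LPS libraries held 31.5 and 36.8 FPKM, and 44.6, 50.7 and 26.6 FPKM. With LPS + Dex Idh2 was at 60.0, 66.6 and 61.2 FPKM and at 68.1, 63.0 and 59.3 FPKM. The 3 treatments did not overlap in either genotype. For LPS against vehicle the groups did not overlap in 72.1% (wild-type) and 71.6% (labelled AMPKa1-/-) of all genes tested. These shares were 48.4% and 46.4% for LPS + Dex against LPS, and 55.4% and 67.7% for LPS + Dex against vehicle. The change of Idh2 with LPS was -1.32 (SE 0.18, adjusted p = 2.86e-07) and -1.11 (SE 0.16, adjusted p = 6.24e-07), and Dex on top of LPS raised it by 0.86 (SE 0.18, adjusted p = 0.000301) and 0.68 (SE 0.16, adjusted p = 0.000958). The second of these rises missed the threshold when only its 2 groups were fitted (adjusted p = 0.0538). The remaining gap between LPS + Dex and vehicle, -0.46 and -0.43, passed the test (adjusted p = 0.0141 and 0.0209) but not after the libraries were centred on one median (-0.24, adjusted p = 0.283, and -0.14, adjusted p = 0.534), nor without wild-type vehicle replicate 2 (-0.34, adjusted p = 0.0935) or without LPS + Dex replicate 3 labelled AMPKa1-/- (-0.38, adjusted p = 0.0752).

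The 3 subunits of the NAD-dependent isocitrate dehydrogenase did not move as a unit. Idh3a (ENSMUSG00000032279, chr9:54586334-54604661, plus strand) encodes the catalytic subunit, and Idh3b (ENSMUSG00000027406, chr2:130279309-130284547, minus strand) and Idh3g (ENSMUSG00000002010, chrX:73778963-73786897, minus strand) encode the subunits that pair with it. In vehicle cells Idh3a was at 10.3, 10.2 and 11.1 FPKM (wild-type) and 9.76, 11.7 and 11 FPKM (labelled AMPKa1-/-), the lowest level of the 8 dehydrogenase genes. LPS raised it to 16.9 and 15.8 FPKM and to 20.2, 17.4 and 13.3 FPKM, a change of 0.59 in both genotypes (SE 0.14 and 0.13, adjusted p = 0.000792 and 0.000210).

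LPS + Dex raised Idh3a further. It reached 42.9, 37.3 and 29.0 FPKM in wild-type cells and 45.4, 41.4 and 41.2 FPKM in cells labelled AMPKa1-/-, all above every LPS library. The rise over LPS was 1.09 (SE 0.14, adjusted p = 4.63e-07) and 1.30 (SE 0.13, adjusted p = 2.05e-09). Dex alone did the reverse: Idh3a fell to 6.63, 6.15 and 6.28 FPKM and to 6.13, 6.34 and 7.54 FPKM, a change of -0.65 (adjusted p = 0.000245) and -0.63 (adjusted p = 0.000373, SE 0.13 for both). The effect of Dex on LPS beyond that of Dex alone, tested as an interaction, was 1.74 (SE 0.19, adjusted p = 6.17e-08) and 1.93 (SE 0.18, adjusted p = 2.88e-09) for Idh3a, more than for any of the other 8 genes.

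Idh3b and Idh3g fell with LPS while Idh3a rose. Idh3b went from 135, 148 and 137 FPKM in wild-type vehicle cells to 87.0 and 97.3 FPKM with LPS and 213, 258 and 203 FPKM with LPS + Dex. In cells labelled AMPKa1-/- it went from 152, 137 and 128 FPKM to 102, 105 and 80.1 FPKM and then to 256, 247 and 223 FPKM. The 3 treatments were separate in both genotypes, with LPS lowest and LPS + Dex highest. The shares of all genes with separate groups are those given for Idh2. The change with LPS was -0.60 (SE 0.12, adjusted p = 0.000112) and -0.54 (SE 0.11, adjusted p = 8.25e-05), the second of which missed the threshold after centring (-0.27, adjusted p = 0.0973). The rise with LPS + Dex over LPS was 1.27 (SE 0.12, adjusted p = 2.05e-09) and 1.34 (SE 0.11, adjusted p = 5.86e-11).

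Idh3g went from 131, 152 and 126 FPKM in wild-type vehicle cells to 68.7 and 75.6 FPKM with LPS and back to 153, 153 and 134 FPKM with LPS + Dex. Cells labelled AMPKa1-/- had 133, 131 and 132 FPKM, then 82.1, 77.8 and 71.8 FPKM, then 159, 145 and 146 FPKM. The change with LPS was -0.90 (SE 0.10, adjusted p = 4.82e-09) and -0.77 (SE 0.09, adjusted p = 8.79e-09), and LPS + Dex raised it from there by 1.01 (SE 0.10, adjusted p = 1.72e-09) and 0.95 (SE 0.09, adjusted p = 4.21e-10). LPS + Dex against vehicle did not pass the test after adjustment (0.11, 95% interval -0.06 to 0.29, and 0.18, interval 0.01 to 0.36). The intervals are not adjusted for the number of genes, and the second leaves out 0. After centring the difference passed the test (0.34, adjusted p = 0.0183, and 0.47, adjusted p = 0.00125). In cells labelled AMPKa1-/- it also passed after quantile normalization (0.20, adjusted p = 0.0312).

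Without LPS, Dex raised Idh3g in both genotypes. Idh3g was at 183, 164 and 187 FPKM (wild-type) and 208, 209 and 216 FPKM (labelled AMPKa1-/-) with Dex alone, a rise of 0.39 (adjusted p = 0.000995) and 0.67 (adjusted p = 6.62e-07, SE 0.09 for both). After centring the wild-type rise was 0.30 (adjusted p = 0.0522). Idh3b rose with Dex alone in cells labelled AMPKa1-/- to 218, 208 and 188 FPKM (0.56, SE 0.11, adjusted p = 0.000241), and stood at 169, 155 and 173 FPKM in wild-type cells (0.24, adjusted p = 0.0942, but 0.28 and adjusted p = 0.0245 after quantile normalization). With DAMPs + Dex both genes were above DAMPs alone in both genotypes: Idh3b by 0.43 and 0.42 (adjusted p = 0.00357 and 0.00422) and Idh3g by 0.51 and 0.66 (adjusted p = 3.76e-05 and 8.84e-07). After centring the Idh3b difference labelled AMPKa1-/- was 0.37 and just missed the threshold (adjusted p = 0.0502).

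**Figure D2:**
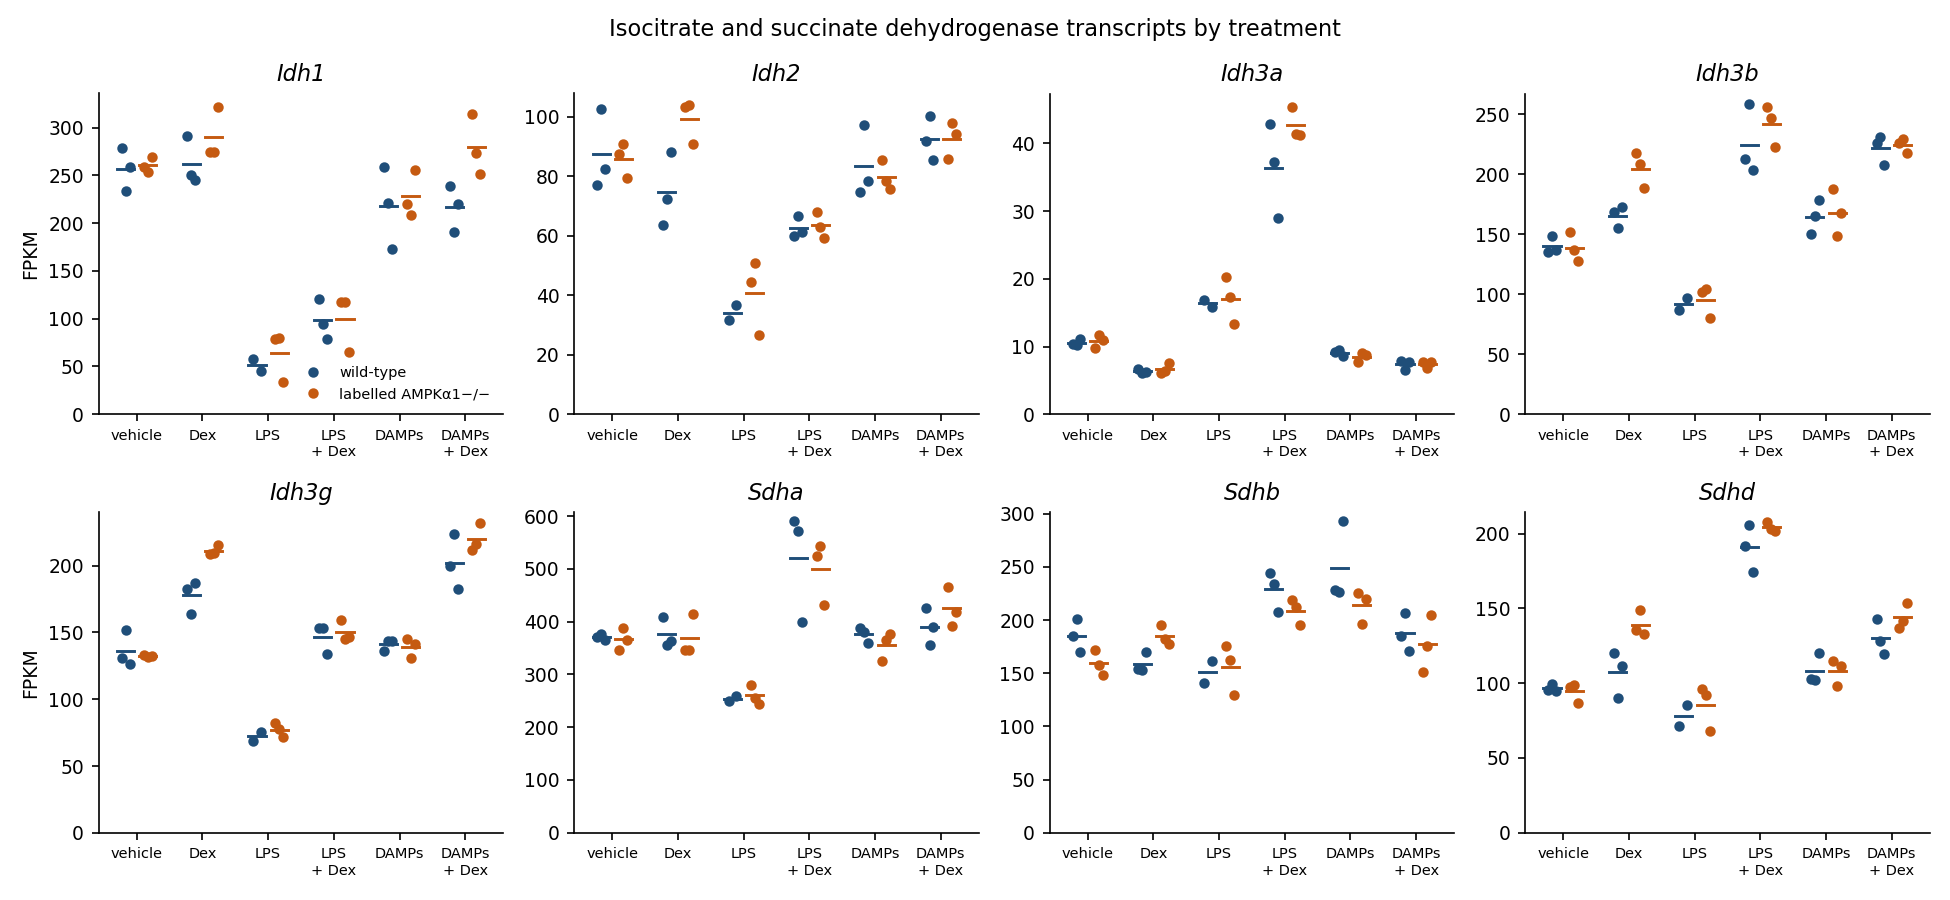
FPKM of the 8 dehydrogenase genes in each library, 1 panel per gene with its own axis from 0, groups by treatment and genotype, bars for group means. Idh1 and Idh2 are lowest with LPS and stay under vehicle with LPS + Dex, whereas Idh3a, Idh3b, Sdha, Sdhb and Sdhd reach their highest or near their highest levels with LPS + Dex.

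Succinate dehydrogenase was represented by Sdha (ENSMUSG00000021577, chr13:74322254-74350280, minus strand), the flavoprotein that binds succinate, Sdhb (ENSMUSG00000009863, chr4:140961203-140979193, plus strand), the iron-sulfur subunit, and Sdhd (ENSMUSG00000000171, chr9:50596357-50603812, minus strand), a membrane anchor that helps to bind ubiquinone. Sdha was at 371, 376 and 365 FPKM in wild-type vehicle cells, at 249 and 259 FPKM with LPS and at 590.3, 572 and 399.9 FPKM with LPS + Dex. Cells labelled AMPKa1-/- held 346, 387 and 365 FPKM, then 280.2, 256 and 244 FPKM, then 525, 544 and 431 FPKM. Replicate 3 was lowest among the LPS + Dex libraries in both genotypes but still above all vehicle libraries of its genotype. The change of Sdha with LPS was -0.54 (SE 0.13, adjusted p = 0.00103) and -0.49 (SE 0.12, adjusted p = 0.000740), the latter not past the threshold after centring (-0.22, adjusted p = 0.0673). LPS + Dex raised it over LPS by 1.01 (SE 0.13, adjusted p = 6.30e-07) and 0.93 (SE 0.12, adjusted p = 2.78e-07).

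Sdhd had the steepest rise of the 3 with LPS + Dex. Its levels were 95.4, 99.2 and 95 FPKM in wild-type vehicle cells, 71.1 and 85.4 FPKM with LPS and 192, 206 and 175 FPKM with LPS + Dex. In cells labelled AMPKa1-/- they were 97.6, 99.0 and 87.0 FPKM, then 96.3, 91.8 and 68.1 FPKM, then 208, 203 and 202 FPKM. All LPS + Dex libraries were far above the rest, and the rise over LPS was 1.28 (SE 0.13, adjusted p = 6.94e-09) and 1.26 (SE 0.12, adjusted p = 6.90e-10). The change with LPS alone was small: -0.31 in wild-type cells (adjusted p = 0.0470), a call lost under most alternatives, and -0.16 in cells labelled AMPKa1-/- (adjusted p = 0.235), where the sign turned to 0.12 after centring. Dex alone raised Sdhd in cells labelled AMPKa1-/-, to 136, 149 and 133 FPKM (0.55, SE 0.12, adjusted p = 0.000561), while wild-type cells held 119.9, 90.4 and 112 FPKM (0.14, adjusted p = 0.366).

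Sdhb changed least of the 9 genes with LPS + Dex over LPS. With LPS it held 141 and 162 FPKM in wild-type cells, against 185, 201 and 169.9 FPKM in vehicle, and 176, 162 and 129.9 FPKM in cells labelled AMPKa1-/-, against 172, 158 and 148 FPKM. Neither change passed the test (-0.29, adjusted p = 0.0679, and -0.04, adjusted p = 0.788, the latter 0.24 after centring). The wild-type change did pass it after quantile normalization (-0.38, adjusted p = 0.0126) and without wild-type vehicle replicate 3 (-0.35, adjusted p = 0.0473) or LPS replicate 3 labelled AMPKa1-/- (adjusted p = 0.0495). With LPS + Dex Sdhb rose to 244, 234 and 208 FPKM and to 219, 212 and 196 FPKM, by 0.59 (SE 0.13, adjusted p = 0.000909) and 0.43 (SE 0.12, adjusted p = 0.00529) over LPS. The second call was lost without LPS replicate 3 labelled AMPKa1-/- (0.30, adjusted p = 0.0635).

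With DAMPs, Sdhb stood at 228, 226 and 293 FPKM in wild-type cells and at 226, 196 and 220.2 FPKM in cells labelled AMPKa1-/-, above every vehicle library of the same genotype. Groups did not overlap, in either direction, for 13.1% and 21.1% of all genes in this comparison. The difference of 0.42 (SE 0.12) was the same in both and lay on either side of the threshold (adjusted p = 0.0702 and 0.0402). The wild-type difference passed it without wild-type DAMPs replicate 2 (0.48, adjusted p = 0.0430) or LPS replicate 3 labelled AMPKa1-/- (adjusted p = 0.0438). The call labelled AMPKa1-/- was lost when the replicate number was added as a block (0.42, adjusted p = 0.0515), with no filter, after centring, in smaller fits and without any 1 of 4 libraries, for which adjusted p ran up to 0.218. DAMPs + Dex took it back to 185, 206 and 171 FPKM and to 151, 176 and 204 FPKM, a change of -0.40 in wild-type cells (adjusted p = 0.0140) and of -0.28 in cells labelled AMPKa1-/- (adjusted p = 0.0906). The wild-type call was lost without DAMPs replicate 3 (adjusted p = 0.126), the library with 293 FPKM, without DAMPs + Dex replicate 3 (-0.34, adjusted p = 0.0736) and with only the 2 groups fitted (adjusted p = 0.108).

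The contrast between Acod1 and the enzymes around it shows best in their ratios within a library, which do not depend on how the library was scaled. In wild-type vehicle cells the mean ratio of Acod1 to Idh1 was 0.00734, to Idh3a 0.176 and to Sdha 0.00509. With LPS these ratios were 30.7, 94.0 and 6.00, so that Acod1 outnumbered each of them per length of gene. With LPS + Dex they were 2.90, 7.85 and 0.561, as Acod1 fell and its neighbours rose, and without replicate 3 they were 1.84, 4.98 and 0.348. Cells labelled AMPKa1-/- had 21.1, 72.3 and 4.66 with LPS and 3.39, 7.66 and 0.656 with LPS + Dex. With LPS + Dex Acod1 stayed above Idh1 and Idh3a, and its place relative to Sdha depended on the gene length used.

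Levels of different genes carry a further limit. The lengths by which the files divided fragments lay near the mean length of a gene's annotated transcripts, 747 bases for Sdha and 2623 bases for Acod1. Taking each gene's longest annotated transcript in place of that length, an alternative chosen after the data had been seen, lowered Sdha in wild-type vehicle cells from 371 to 95.5 FPKM and Idh1 from 257 to 122 FPKM, left Acod1 at 1.88 FPKM, and put Sdhb (172 FPKM) above Sdha. With LPS + Dex it put Acod1 (267 and 329 FPKM) above Sdha (134 and 129 FPKM), the reverse of the order in the deposited FPKM. Comparisons of 1 gene between groups are not touched by this.

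For LPS + Dex against LPS, all 9 genes passed the test in both genotypes, 8 higher and Acod1 lower. Of all genes tested 34.1% were called in wild-type cells (16.6% higher, 17.5% lower) and 37.7% in cells labelled AMPKa1-/- (19.3% higher, 18.4% lower), and the median change over all genes was -0.03 and 0.01. In the LPS + Dex libraries the acute phase gene Saa3 made up 16.0% to 24.0% of all FPKM, against 3.74% to 7.58% with LPS and at most 2.63% elsewhere, and its part in the FPKM of other genes was not tested beyond the centred and quantile-normalised fits, in which all 9 calls held in both genotypes.

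The other comparisons involved fewer of the genes. LPS against vehicle called 8 of 9 in wild-type cells (2 higher, Acod1 and Idh3a) and 7 of 9 in cells labelled AMPKa1-/-, where 55.7% (19.9% higher, 35.8% lower) and 64.3% (20.2% higher, 44.1% lower) of all genes were called. Of all called genes 35.7% and 31.4% were higher, and 46.3% and 49.0% after centring. LPS + Dex against vehicle called 8 of 9 in both genotypes, 6 higher and 2 lower (Idh1 and Idh2), beside 54.2% (17.2% higher, 37.0% lower) and 57.4% (16.7% higher, 40.8% lower) of all genes. In wild-type cells the Sdhb call (0.30, adjusted p = 0.0352) was lost with no filter (adjusted p = 0.0625), with only the 2 groups fitted (adjusted p = 0.0810) and without any 1 of several libraries (adjusted p up to 0.143), and that of Sdha (0.47, adjusted p = 0.00158) with only the 2 groups fitted (adjusted p = 0.0584). There 31.7% and 29.0% of the called genes were higher, and 50.3% and 50.9% after centring, with a median of all genes of -0.23 and -0.28. Relative to that median, Idh3a was higher by 1.91 and 2.16 and Sdhd by 1.2 and 1.38.

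Dex against vehicle called 3 of 9 in wild-type cells (Idh3g higher, Acod1 and Idh3a lower) and 5 of 9 in cells labelled AMPKa1-/- (Idh3b, Idh3g and Sdhd higher, Acod1 and Idh3a lower), against 30.9% (15.9% higher, 14.9% lower) and 27.9% (11.9% higher, 16.0% lower) of all genes. DAMPs against vehicle called Acod1 alone in wild-type cells and Acod1 and Sdhb in cells labelled AMPKa1-/- (the wild-type call and that of Sdhb were lost under several alternatives, as given above), against 2.01% (1.22% higher, 0.793% lower) and 4.13% (1.89% higher, 2.24% lower) of all genes. DAMPs + Dex against DAMPs called 4 of 9 in both genotypes, against 24.3% (11.7% higher, 12.6% lower) and 25.3% (13.1% higher, 12.2% lower) of all genes: Idh3b and Idh3g higher and Acod1 lower in both, with Sdhb lower in wild-type cells and Sdhd higher in cells labelled AMPKa1-/- (0.41, adjusted p = 0.00916). The Sdhd call was lost after centring (0.36, adjusted p = 0.0748) and without DAMPs replicate 2 (0.34, adjusted p = 0.0630).

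The action of Dex on LPS-treated cells beyond its action on unstimulated cells was called for 8 of 9 genes in wild-type cells, 7 of them higher, and for 4 in cells labelled AMPKa1-/- (Idh3a, Idh3b, Sdha and Sdhd, all higher), with 32% (14.9% higher, 17.1% lower) and 28.4% (15.5% higher, 12.8% lower) of all genes called. Sdhd gained 1.14 (SE 0.17, adjusted p = 1.17e-05) and 0.71 (SE 0.16, adjusted p = 0.00142), and Sdha 0.99 (SE 0.18) and 0.93 (SE 0.17, adjusted p = 0.000103 for both). The wild-type call for Acod1, -1.41 (SE 0.52, adjusted p = 0.0390), depended on the pseudocount: with 0.1 in place of 1 the value was 0.0074, and the call was also lost after centring (adjusted p = 0.0769) and without several single libraries. Idh1 gained a wild-type call after centring (1.04, adjusted p = 0.0132), with 1 genotype only (0.87, adjusted p = 0.0198) and with only the groups compared (adjusted p = 0.0221). In cells labelled AMPKa1-/- Idh3g gained one after quantile normalization (0.38, adjusted p = 0.00799). There Idh2 gained one without LPS replicate 2 (0.65, adjusted p = 0.0233).

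**Figure D3:**
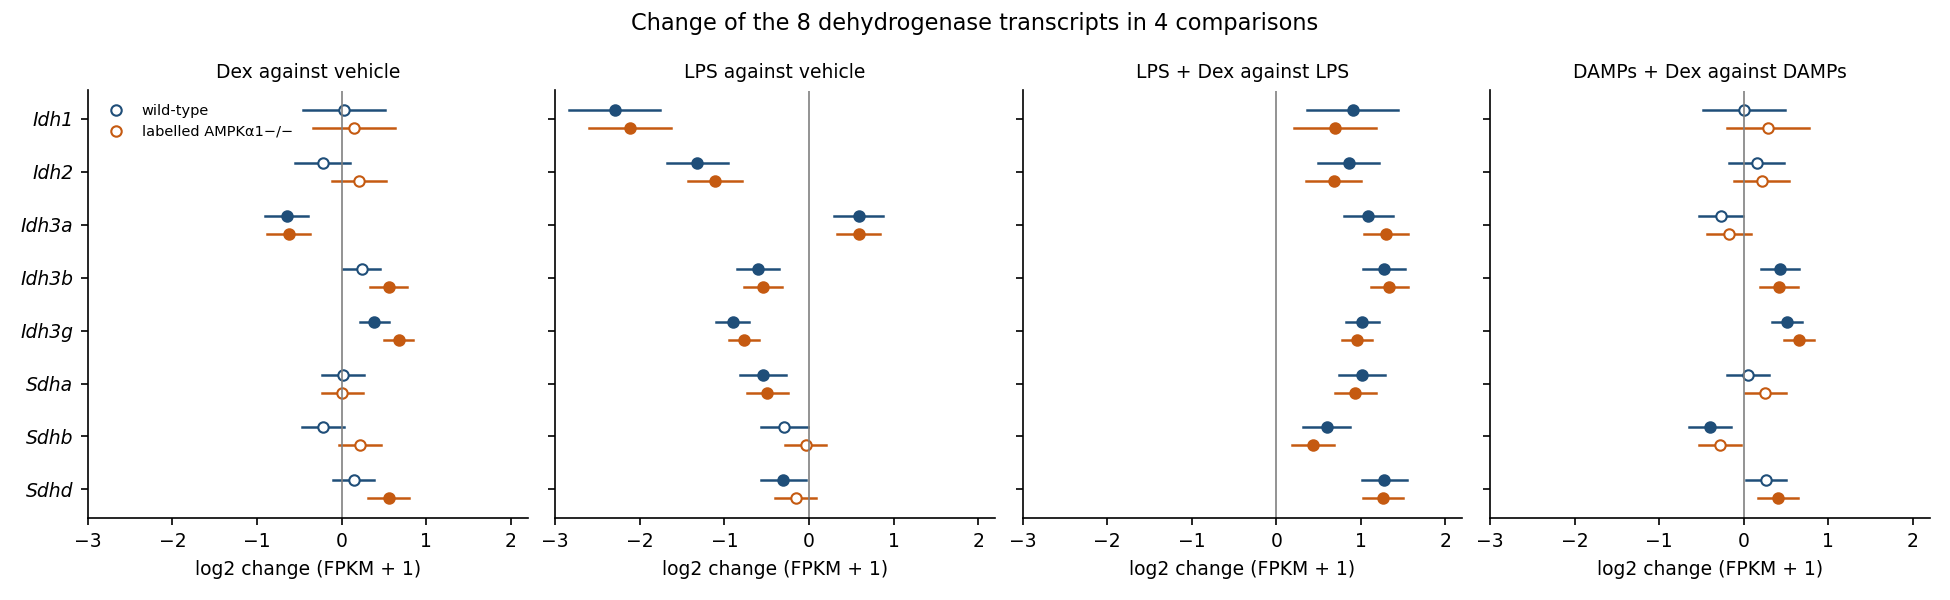
Differences in log2(FPKM + 1) of the 8 dehydrogenase genes in 4 treatment comparisons, 1 panel each, with lines for 95% intervals, wild-type and AMPKa1-/- in separate colours and points filled where the adjusted p was under 0.05. With LPS + Dex against LPS all 8 genes lie between 0.43 and 1.34, whereas with LPS against vehicle only Idh3a lies above 0.

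Ratios between related subunits were tested for shifts, with the genotypes as strata (exact permutation test, 2-sided, 30 tests, Benjamini-Hochberg adjusted, smallest possible unadjusted p 0.005). Of these 20 passed. The ratio of Idh3b to Idh3a was 13.3 in wild-type vehicle cells, 26.1 with Dex, 5.64 with LPS, 6.29 with LPS + Dex, 18.3 with DAMPs and 30.4 with DAMPs + Dex, and 13, 31.1, 5.70, 5.67, 20.0 and 30.4 in cells labelled AMPKa1-/-. Dex alone shifted it by 1.12 in log2, LPS by -1.21, DAMPs by 0.54 and DAMPs + Dex over DAMPs by 0.67 (adjusted p = 0.0107 for each), in separate directions for LPS and for the rest. Once LPS was present, Dex did not shift it detectably (0.07, adjusted p = 0.612), both transcripts rising together. Idh3g to Idh3a gave a like picture (1.25, -1.48, 0.35 and 0.83, adjusted p = 0.0107 for each, and -0.25 for LPS + Dex over LPS, adjusted p = 0.0614).

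The ratio of Idh1 to Idh2 went from 3.01 and 3.05 in vehicle to 1.54 and 1.53 with LPS (-0.99 in log2, adjusted p = 0.0107), and was 1.58 and 1.57 with LPS + Dex (0.02 from LPS, adjusted p = 0.895). Dex thus raised both transcripts without a detectable shift of their LPS ratio. Idh2 to Idh3a shifted by -1.87 with LPS (adjusted p = 0.0107) and by a further -0.46 with LPS + Dex (adjusted p = 0.0300), -0.26 in wild-type cells and -0.66 in cells labelled AMPKa1-/-, a call lost when any 1 of 6 libraries was left out (-0.47 to -0.38, adjusted p up to 0.107). Without LPS, Dex shifted this ratio the other way, by 0.71 over vehicle (adjusted p = 0.0176) and by 0.43 over DAMPs (adjusted p = 0.0107).

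Within succinate dehydrogenase, Sdhb to Sdha was 0.5 and 0.437 in vehicle, 0.595 and 0.597 with LPS, 0.448 and 0.420 with LPS + Dex, and 0.667 and 0.605 with DAMPs. LPS and DAMPs raised the ratio (0.35 and 0.44 in log2, adjusted p = 0.0107 for both), and Dex lowered it on top of either (-0.46, adjusted p = 0.0176, and -0.50, adjusted p = 0.0107). Sdhd to Sdha was 0.260 and 0.259 in vehicle, 0.285 and 0.381 with Dex, 0.308 and 0.327 with LPS, and 0.374 and 0.413 with LPS + Dex. Over both genotypes it rose with Dex (0.34, adjusted p = 0.0300), by 0.12 in wild-type cells, where the groups overlapped, and by 0.55 in cells labelled AMPKa1-/-. It also rose with LPS (0.29, adjusted p = 0.0176) and again with LPS + Dex over LPS (0.31, adjusted p = 0.0300). Each of these 3 calls was lost when certain single libraries were left out, with adjusted p up to 0.060 for Dex (without vehicle replicate 2 or 3 labelled AMPKa1-/-), up to 0.060 for LPS (without vehicle replicate 3 labelled AMPKa1-/-) and up to 0.13 for LPS + Dex over LPS (without wild-type LPS replicate 2).

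**Figure D4:**
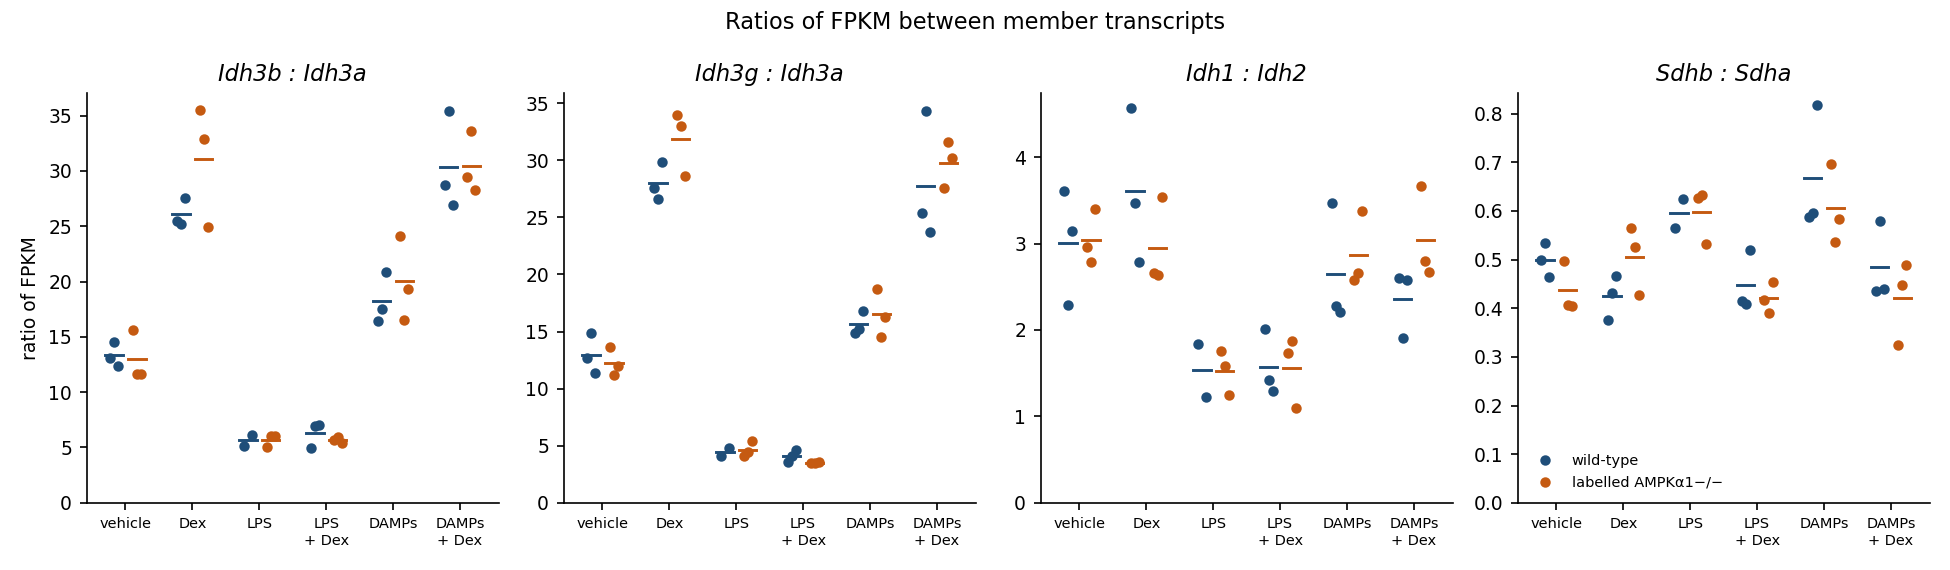
Ratios of FPKM between related genes (linear axis from 0, 1 panel per pair), by treatment and genotype, with a point for each library and a bar for the group mean. The ratio of Idh3b to Idh3a is near 13 in vehicle, between 26.1 and 31.1 on average with Dex or DAMPs + Dex, and between 5.64 and 6.29 with LPS or LPS + Dex.

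With all libraries, no difference between genotypes was called for any of the 9 genes. For each of the 5 treatment effects, limma called 0 of 11354 genes as different between the genotypes, with 2441 (Dex), 514 (LPS), 311 (LPS + Dex over LPS), 66 (DAMPs) and 234 (DAMPs + Dex over DAMPs) at an unadjusted p under 0.05. The 9 genes came nearest to a call in the effect of Dex alone. There the differences between genotypes ran from -0.05 to 0.43, with a smallest unadjusted p of 0.0165 and a smallest adjusted p of 0.195 (limma). For Acod1 the difference in the effect of Dex on LPS was 0.71 with a 95% interval from -0.35 to 1.78, so the libraries leave its size and sign unresolved. In vehicle cells 49 genes were called (0.432%) and over the mean of the 6 treatments 2432 (21.4%), none of them among the 9. Sdhd came closest, 0.12 higher over all treatments in libraries labelled AMPKa1-/- (adjusted p = 0.0766). It passed the threshold after centring (0.17, adjusted p = 0.0385) and without LPS replicate 3 labelled AMPKa1-/- (0.14, adjusted p = 0.0179), wild-type DAMPs replicate 3 (0.13, adjusted p = 0.0494) or wild-type LPS replicate 3 (0.14, adjusted p = 0.0496). Idh2 passed it without LPS replicate 3 labelled AMPKa1-/- (0.14, adjusted p = 0.0488).

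The promoter windows of Acod1, Idh3b and Sdhd are shown because these are the genes with the largest fall and the largest rises with LPS + Dex against LPS in wild-type cells. Each runs from 250 bases before to 50 bases after the RefSeq start (GRCm38.p6), read 5′ to 3′ on the strand of the gene: chr14:103046762-103047061 on the plus strand for Acod1, chr2:130284402-130284701 on the minus strand for Idh3b and chr9:50603800-50604099 on the minus strand for Sdhd. Capitals mark matches to the 8 letter patterns searched on both strands.
Acod1: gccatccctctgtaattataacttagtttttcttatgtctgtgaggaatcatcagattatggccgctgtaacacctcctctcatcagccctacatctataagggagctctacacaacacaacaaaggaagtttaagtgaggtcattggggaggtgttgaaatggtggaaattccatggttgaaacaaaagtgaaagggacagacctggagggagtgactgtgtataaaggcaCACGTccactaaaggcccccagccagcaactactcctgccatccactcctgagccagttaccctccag
Idh3b: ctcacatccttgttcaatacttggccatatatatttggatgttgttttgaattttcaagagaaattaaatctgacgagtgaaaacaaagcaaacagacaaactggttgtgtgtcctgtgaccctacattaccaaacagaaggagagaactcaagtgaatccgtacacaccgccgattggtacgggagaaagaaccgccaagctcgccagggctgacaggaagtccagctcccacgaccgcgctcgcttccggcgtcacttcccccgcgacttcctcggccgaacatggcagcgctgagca
Sdhd: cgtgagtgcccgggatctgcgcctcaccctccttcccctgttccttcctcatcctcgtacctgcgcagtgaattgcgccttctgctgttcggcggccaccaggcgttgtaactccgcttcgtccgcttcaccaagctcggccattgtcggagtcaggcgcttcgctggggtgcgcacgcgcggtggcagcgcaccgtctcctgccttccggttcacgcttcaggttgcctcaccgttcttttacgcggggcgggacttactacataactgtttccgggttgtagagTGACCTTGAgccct

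The capitals in the Acod1 window are the reverse complement of ACGTG, the core that HIF1 binds, 18 bases before the start. This pattern was in the windows of Acod1, Idh3g and Sdha, 3 of the 8 genes with a window (1 had no entry), and in 19.6% of all 32851 windows. The capitals in the Sdhd window are the reverse complement of TCAAGGTCA, a pattern of the ERR nuclear receptors, 37 bases after the start, found in 1 of the 8 genes and in 0.423% of all windows. The other 6 patterns had no match in any of the 8 windows: TGACGTCA of the cAMP response element (1.79% of all windows), GAAANNGAA of interferon-stimulated elements (8.56%), GGGACTTTC of NF-κB (0.353%), GCGCATGCG of NRF1 (1.75%), and ACANNNTGT (6.85%) and AGAACA (19.0%) of the glucocorticoid response element, which share the letters ACA. A match is a description of the sequence only.

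The other TCA cycle enzymes were taken as a list of 10. With LPS + Dex against LPS, 8 of 10 were higher in wild-type cells and 9 of 10 in cells labelled AMPKa1-/-, none was lower, and the median change was 0.53 and 0.56 beside medians of -0.03 and 0.01 and shares called higher of 16.6% and 19.3% for all genes. Sdhc, the other membrane anchor of succinate dehydrogenase, rose by 0.71 and 0.81 (adjusted p = 3.76e-05 and 8.10e-07). Fh1, the fumarase that acts on the product of succinate dehydrogenase, rose by 0.78 and 0.65 (adjusted p = 3.88e-05 and 7.66e-05) after a fall with LPS (-1.17 and -0.86). Mdh2, the mitochondrial malate dehydrogenase, rose at both steps, by 0.56 and 0.75 with LPS and by 0.75 and 0.72 with LPS + Dex over LPS. With LPS alone 4 of the 10 were higher and 2 lower in wild-type cells, and 5 and 2 in cells labelled AMPKa1-/-, so that 6 and 7 of 10 were called beside 55.7% and 64.3% of all genes (19.9% and 20.2% higher, 35.8% and 44.1% lower). With DAMPs 0 of the 10 were called in either genotype, beside 2.01% and 4.13% of all genes, and with DAMPs + Dex over DAMPs 1 and 2 were lower, beside 12.6% and 12.2% of all genes.

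Of 4 assembly factors of succinate dehydrogenase 3 passed the filter. Sdhaf2, which helps to attach the flavin cofactor to Sdha, moved opposite to Sdha: it rose with LPS by 0.91 and 0.69 and fell with LPS + Dex over LPS (-0.58 and -0.51, adjusted p = 0.000455 and 0.000477). Sdhaf4, which acts in joining Sdha to Sdhb, rose by 0.87 in cells labelled AMPKa1-/- (adjusted p = 0.000201) and had 0.33 in wild-type cells (adjusted p = 0.201). Sdhaf3, the third of them, had 0.02 and -0.02 (adjusted p = 0.937 and 0.924). Of the 3, then, 0 and 1 were higher and 1 and 1 lower with LPS + Dex over LPS, beside 16.6% and 19.3% of all genes higher and 17.5% and 18.4% lower.

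Among 12 tested genes for the transport and handling of citrate, itaconate and succinate (of 13 listed), 7 were higher with LPS + Dex over LPS in either genotype, and 0 and 2 lower, beside 16.6% and 19.3% of all genes higher and 17.5% and 18.4% lower. The median change of the 12 was 0.42 and 0.58. Slc13a3, a sodium-coupled carrier of dicarboxylates at the plasma membrane, went from a mean of 2.21 and 2.2 FPKM with LPS to 36.0 and 25.0 FPKM (3.49, adjusted p = 1.13e-08, and 3.11, adjusted p = 8.55e-09). Clybl, a mitochondrial lyase of the route by which itaconate is broken down, rose by 1.47 and 1.91 (adjusted p = 1.08e-06 and 1.04e-09). Slc25a10, the mitochondrial dicarboxylate carrier, rose with LPS (1.58 and 1.87) and again with LPS + Dex (1.17 and 0.88), whereas cytosolic Mdh1 fell with LPS (-0.51 and -0.74) and then rose by 1.39 and 1.62.

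In a list of 10 genes tied to Acod1 induction or to itaconate action, 5 rose and 4 fell with LPS in both genotypes, and with LPS + Dex over LPS 7 fell in wild-type cells and 8 fell and 1 rose in cells labelled AMPKa1-/-. Of all genes, 19.9% and 20.2% rose and 35.8% and 44.1% fell with LPS, so the 4 of 10 that fell are near the share of all genes, and 17.5% and 18.4% fell with LPS + Dex over LPS. Rab32, a GTPase that takes part in delivering itaconate to vacuoles that hold bacteria, rose with LPS and fell with LPS + Dex (1.80 and 1.61, then -1.60 and -1.59), as did the cytokine gene Il1b (11.33 and 11, then -6.82 and -6.56). Nfe2l2, which encodes the oxidative stress factor NRF2, fell with LPS (-1.39 and -1.33) and rose with LPS + Dex by 0.33 in cells labelled AMPKa1-/- (adjusted p = 0.00301) beside 0.11 in wild-type cells (adjusted p = 0.432).

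Of 8 regulators of mitochondrial gene expression 7 were tested, and with LPS + Dex over LPS 3 rose in wild-type cells and 4 in cells labelled AMPKa1-/-, with none lower, beside 16.6% and 19.3% of all genes higher. The median change of the 7 was 0.40 and 0.37. The coactivator gene Ppargc1b rose most of the 7, by 1.84 and 2.10 (adjusted p = 4.53e-06 and 6.26e-08), and Esrra, which encodes an ERR receptor, by 0.42 and 0.37 (adjusted p = 0.0230 and 0.0218). The treatments themselves are visible in the checks chosen for them. The 4 GC-induced genes, among them Tsc22d3 (5.91 and 5.58) and Fkbp5 (5.55 and 5.40), all rose with LPS + Dex over LPS, and the 4 LPS-induced genes Il6, Cxcl10, Nos2 and Tnf all rose with LPS and fell with LPS + Dex, in both genotypes.

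The genes most like each of 4 members over the 35 libraries were sought by Pearson's r of log2(FPKM + 1), as a description, since the points share treatments and fall into treatment groups. Nearest to Acod1 were Tnip1 (r = 0.990), Itgal (0.986), Lmo4, Gpr84 and Emc2 (0.983 for the last). Among the other 8 members, r with Acod1 ran from -0.93 for Idh1 and -0.85 for Idh2 to 0.80 for Idh3a, with Sdhb at 0.02 and Sdhd at 0.03. Sdhd was most like Clybl (0.953), the respiratory chain genes Uqcrh (0.951) and Uqcrfs1 (0.940), the pyruvate carrier gene Mpc2 (0.924) and Ndufb5 (0.922). Idh3b had an r of 0.89 with Sdhd and 0.85 with Idh3g but 0.07 with Idh3a, and its nearest gene was Psen2 (0.927). Idh1 was nearest to Fbxo21 (0.975) and Nceh1 (0.973), and had an r of 0.88 with Idh2.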

How the data were processed

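Each of the 35 libraries was 1 BMDM culture sample with RNA taken by TRIzol and sequenced on Illumina instruments. The authors deposited FPKM values per Ensembl gene, with no counts. The submitters' processing notes name Bowtie2 2.2.3, TopHat2 2.0.12, HTSeq 0.6.1, DESeq2 and GRCm38, without saying which made the FPKM. Symbols were taken from GENCODE M21, which has 46574 of the 47069 identifiers. Library totals were read from the step that 1 fragment makes in FPKM (for weakly expressed genes, those under 10 fragments, 55.8% to 64.2% of values were whole to within 0.001). A fragment on 1 kb was worth 0.0313 to 0.0631 FPKM, and less on a longer gene. Differences smaller than 1 fragment of the gene cannot be resolved. Replicates correlated at 0.967 to 0.993, and 0 pairs shared identical values.

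Genes with a mean of at least 1 FPKM over all libraries were tested on log2(FPKM + 1) with limma 3.58.1 in R 4.3.3 (12 groups, empirical Bayes with trend, 2-sided, no covariates, Benjamini-Hochberg at 0.05 over 11354 genes), so that the 2 wild-type LPS libraries borrow their spread from all groups. The code was tested on simulated data. Ratios between members were tested by exact permutation within genotype. Python 3.11.15, numpy 2.4.6, pandas 2.3.3, scipy 1.17.1 and matplotlib 3.10.9 were used. The study's methods give N as data or cultures from individual mice, and the labels do not tie a library to a mouse, so p-values measure the spread between these samples.

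The genes named by rule are the 9 members, the targeted gene and its paralog, up to 4 genes of each list with the smallest p in LPS + Dex against LPS in wild-type cells (in LPS against vehicle for the list tied to Acod1), and genes among the 5 with the highest r to Acod1, Idh1, Idh3b and Sdhd. Outside this rule, Saa3 and the cell type markers Lyz2, Camp, Ly6g, Retnlg, Ccr7 and Cd209a were named to describe the libraries. Members and lists were chosen with earlier results of these data known. Values of 2 genes of the pathway and the lists are not reported here. Other settings tried were centring, a pseudocount of 0.1, a minimum mean of 5 FPKM or none, quantile normalization, 1 genotype only, only the groups compared, a replicate block, and each library left out. As a check of the replicate numbers, deviations from group means were correlated between same-numbered libraries. In libraries labelled AMPKa1-/- all 3 pairs exceeded 0.1 for Dex against vehicle (0.217 to 0.400) and LPS against vehicle (0.124 to 0.316). They also did so for LPS + Dex against LPS (0.356 to 0.375) and LPS + Dex against vehicle (0.246 to 0.365). In wild-type libraries the 2 pairs available for LPS + Dex against LPS exceeded it as well (0.113 and 0.429). No other comparison had all its pairs above 0.1. The libraries of these comparisons count as paired there, but the tests printed are unpaired. The block is given only where it changes a call or bears on an overlap. The labels do not say what a number marks.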

Additional observations from a re-analysis of the deposited data

How the results depend on the processing

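Of the counts of members called, most moved by no more than 1.5 times under every alternative. The exceptions were DAMPs against vehicle, where 1 call in wild-type cells became 0 with a pseudocount of 0.1, no filter, centring, 1 genotype only or only the groups compared, and 2 calls in cells labelled AMPKa1-/- became 1 (Sdhb lost) with no filter, centring, 1 genotype only, only the groups compared or the replicate block. DAMPs + Dex against DAMPs labelled AMPKa1-/- went from 4 to 2 with centring (Idh3b and Sdhd lost), and the genotype mean from 0 to 1 with centring (Sdhd). With 1 library left out these counts were 0 to 2, 1 to 2 and, for the genotype mean, 0 to 2. The 20 ratio calls became 18 to 21. The replicate block, set within each genotype, could not be fitted to level differences between genotypes. It changed no other call of a member than that of Sdhb with DAMPs and that of Sdhd with LPS in wild-type cells (-0.28, adjusted p = 0.0753), and 28 of 35 libraries correlated best with their own number.

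Centring turned the sign of small changes: Sdha with DAMPs labelled AMPKa1-/- (-0.04 to 0.022), Idh1 and Sdha with Dex in wild-type cells (0.03 to -0.059 and 0.02 to -0.071), Sdhb and Sdhd with LPS labelled AMPKa1-/- (-0.04 to 0.24 and -0.16 to 0.12), and the genotype difference of Acod1 with Dex (-0.05 to 0.13, and 0.085 with a pseudocount of 0.1). A pseudocount of 0.1 took the action of Dex on Acod1 in LPS-treated cells beyond Dex alone from -1.41 to 0.0074 and from -0.65 to 0.63. Leaving out 1 library turned the sign within these ranges: Acod1 between genotypes in vehicle (-0.29 to 0.43) and for Dex (-0.39 to 0.33). For Dex they were -0.047 to 0.088 (Idh1, wild-type), -0.043 to 0.057 (Sdha, wild-type) and -0.081 to 0.051 (Sdha, labelled AMPKa1-/-). For DAMPs they were -0.18 to 0.056 (Idh2, wild-type), -0.0047 to 0.050 (Sdha, wild-type) and -0.087 to 0.021 (Sdha, labelled AMPKa1-/-). For DAMPs + Dex over DAMPs they were -0.15 to 0.14 (Idh1) and -0.013 to 0.12 (Sdha, both wild-type), and for LPS -0.13 to 0.085 (Sdhb, labelled AMPKa1-/-). Log2 ratios of Idh1 to Idh2 ran from -0.11 to 0.070 for DAMPs + Dex and from -0.12 to 0.17 for LPS + Dex over LPS, and Sdhb to Sdha from -0.056 to 0.045 for Dex.

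Counts over all genes moved more. No filter gave 21, 118, 75, 2 and 9 interaction calls in place of 0 (7, 27, 58, 2 and 6 higher), centring gave 4 (1 higher) for Dex, quantile normalization 1 each for Dex, LPS and LPS + Dex, and the block 5 (3 higher) for LPS. The 49 genes between genotypes in vehicle became 92 with no filter, 27 at 5 FPKM and 13 with only the groups compared, and 28 to 58 with 1 library left out. DAMPs in wild-type cells went from 228 to 94 with 1 genotype only and to 0 with only the groups compared (27 to 374 with 1 library left out), and labelled AMPKa1-/- from 469 to 274 (268 to 516). With only the groups compared, LPS + Dex against LPS in wild-type cells went from 3871 to 1931 and DAMPs + Dex against DAMPs from 2756 to 1825. The causes were not tested.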
